A study of Pyrus pyrifolia with 2 samples.

Results

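Divergent gene pairs are neighbouring genes that point away from each other, with their start codons facing across a shared intergenic stretch. In the pear annotation used by the authors, 602 such pairs had a gap of at most 1000 bases, out of 41477 consecutive pairs of annotated genes. They were found by position alone. Annotated genes (identifiers starting with Pbr, 1 transcript each) were ordered along each chromosome or scaffold, and a pair was kept where the first gene lay on the minus strand, the second on the plus strand and their spans did not overlap. The 602 pairs hold 1204 genes, each in a single pair, of 42341 annotated genes. Pairs that face each other (tail-to-tail, 2581) and pairs on the same strand (2061), with the same gap limit, served as background.

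RNA came from wounded tissue of sand pear (Pyrus pyrifolia, cultivar Shuijing). Wounds had received 30 μL of sterilized water (control) or 30 μL of cells of Wickerhamomyces anomalus, which is a yeast examined for biocontrol of postharvest decay. Both groups were kept for 3 days at 28 °C and 95% relative humidity, and the study asked how the fruit's defence genes respond to the yeast. Each treatment has 1 library, estimated at 19367039 read pairs for water and 16753518 for yeast, so the spread between fruits is unknown, no p-value is given, and a ratio is a comparison of single libraries. The labels do not say how many fruits went into a library.

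In a head-to-head arrangement, the intergenic stretch can hold the promoters and the 5′ untranslated regions of both genes. Some short stretches of this kind are known in yeasts, plants and mammals to act as bidirectional promoters that drive both genes, while others hold separate promoters that are regulated apart. Shared activity is usually looked for as similar levels, or similar responses to a treatment, of both genes. The files give no names or products for these identifiers, so what the genes encode, and whether markers of fruit tissue are present, is not stated here. No genome sequence was used, so pairs are given by position in the deposited tables (1-based), without the sequence of the gaps. All 42341 annotated lengths are divisible by 3, so the spans are taken as coding spans and a gap runs from start codon to start codon.

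Short divergent gaps were rare. Of all 9824 divergent neighbours at any distance, 6.13% lay within 1000 bases, against 26.1% of 9889 tail-to-tail neighbours and 9.47% of 21764 same-strand neighbours. The median distance without a limit was 6237.5 bases for divergent, 2206 bases for tail-to-tail and 4456.5 bases for same-strand neighbours. Within the limit the gap distributions were closer, with medians of 652.5, 644 and 612 bases. Only 43 divergent gaps were of 250 bases or less, 147 were over 250 and up to 500 bases, and 412 were longer. The shortest divergent gap was 5 bases, and no annotated spans of neighbouring genes overlapped in any orientation. Same-strand neighbours included 551 gaps of 250 bases or less, and 119 of the same-strand pairs had been merged into a single assembled locus. No divergent or tail-to-tail pair had been merged in this way.

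**Figure D1:**
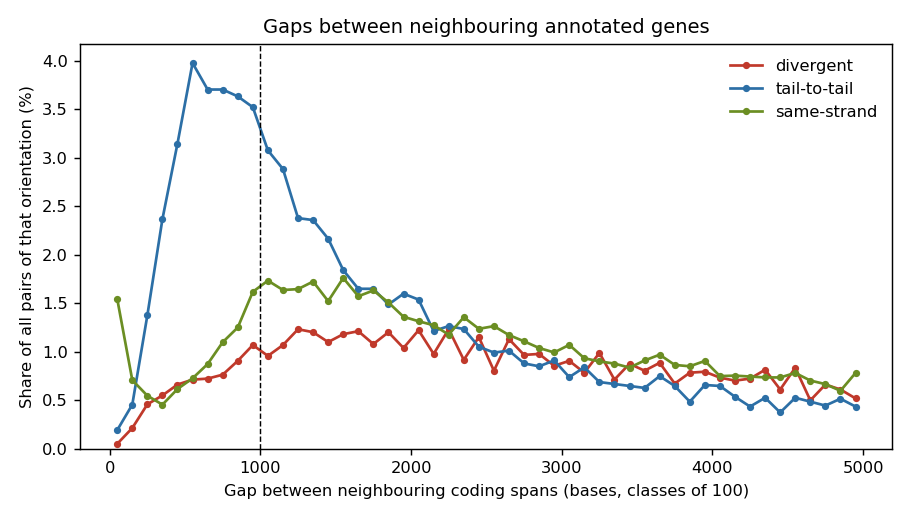
Share of all neighbouring annotated gene pairs of each orientation (y axis, percent) by the gap between their coding spans (x axis, bases, classes of 100 plotted at the class centre). The dashed line marks the 1000-base limit, within which lie 6.13% of divergent, 26.1% of tail-to-tail and 9.47% of same-strand neighbours.

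The pairs were spread over the genome, with 498 on the 17 chromosomes and 104 on 68 unplaced scaffolds. Chromosome 15, which holds 4091 annotated genes, had 61 pairs. Per 1000 annotated genes, the number ran from 10.3 on chromosome 11 to 19.6 on chromosome 2. Member genes had a median of 3 exons and a median coding length of 858 bases, against 3 exons and 948 bases over all annotated genes. A single exon was found in 28.8% of members and 28.2% of all annotated genes, and 6 or more exons in 32.5% and 29.6%.

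Assembled transcripts, which can extend past the coding span, showed how far transcription reached into the gaps. For 279 members the locus held assembled transcripts and no other annotated gene. At these, the locus extended past the start codon by a median of 62 bases and past the stop codon by a median of 252 bases. Over all 7982 annotated genes of this kind, the medians were 141 and 249 bases. Extensions at the start codon were therefore shorter at members, whose neighbour lies close on that side by the choice of members. At 30 pairs the locus spans of both genes overlapped in the gap, 17 of these with both genes measured. Whether reads were counted by strand is not given in the sources used here, so at overlapping ends the reads of both genes may not be told apart. An assembled locus without an annotated gene reached into the gap at 12 pairs. At 1 of them, on chromosome 16, it lay wholly in the gap, and it was listed at 0 in both libraries.

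Levels are FPKM (fragments per kilobase, adjusted for library size by the authors), and a gene is called measured at a mean of at least 1 over both libraries. By this measure 658 of the 1204 members (54.7%) were measured, against 47.0% of all annotated genes. Their median was 8.57 FPKM, against 9.90 FPKM for all measured annotated genes, and 30 members reached 100 FPKM. Another 330 members (27.4%) were listed at 0 in both libraries, as were 34.7% of all annotated genes. In bulk tissue, fewer cells that express a gene and less of its RNA per cell cannot be told apart.

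Both genes of a divergent pair tended to be measured or unmeasured together. Both were measured in 226 pairs (37.5%), 1 of them in 206 pairs (34.2%) and neither in 170 pairs (28.2%). Both genes thus had the same state in 65.8% of the pairs (exact 95% binomial interval 61.8 to 69.6). The same state was found in 53.2% of tail-to-tail pairs (51.2 to 55.1), which have a similar share of measured genes (53.1%). In same-strand pairs it was 67.6% (65.5 to 69.7), so a high share was not particular to divergent pairs. Fewer same-strand genes were measured (35.9%), and the shared state was mostly that of 2 unmeasured genes. Neither gene was measured in 48.2% of same-strand pairs and both in 19.4%. The part of the measured share in these values was not tested. These intervals take pairs as units and cover no spread between fruits, and the orientations were set side by side without a test.

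The number of exons went along with this pattern. Where both genes had a single exon, both were measured in 7 of 67 divergent pairs and neither in 43. Where both had 6 or more exons, both were measured in 55 of 74 pairs (74.3%, interval 62.8 to 83.8) and neither in 5. For such many-exon genes, both were measured in 51.0% of 345 tail-to-tail pairs (45.6 to 56.4) and in 48.1% of 162 same-strand pairs (40.2 to 56.1). The same state was found in 81.1% of these divergent pairs (70.3 to 89.3), 58.0% of the tail-to-tail pairs (52.6 to 63.2) and 59.9% of the same-strand pairs (51.9 to 67.5). The share of measured genes also differed in this class, at 83.8% for divergent, 72.0% for tail-to-tail and 68.2% for same-strand pairs, and its part in the shared state was not tested. At short gaps the shared state was also more frequent among divergent pairs. It was found in 74.4% of the 43 pairs with up to 250 bases, 71.4% of the 147 pairs with up to 500 and 62.9% of the 412 longer ones. The same gap classes gave 86.7%, 71.2% and 58.6% for same-strand pairs, and 61.3%, 49.0% and 54.2% for tail-to-tail pairs, so the shortest gaps had the highest share in every orientation. At these shortest gaps fewer genes were measured, 45.3% for divergent, 33.8% for tail-to-tail and 17.2% for same-strand pairs, and neither gene was measured in 41.9%, 46.8% and 76.6% of the pairs. In divergent neighbours beyond the limit it was 59.0% at gaps up to 2000 bases and 55.6% from there to 5000.

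**Figure D2:**
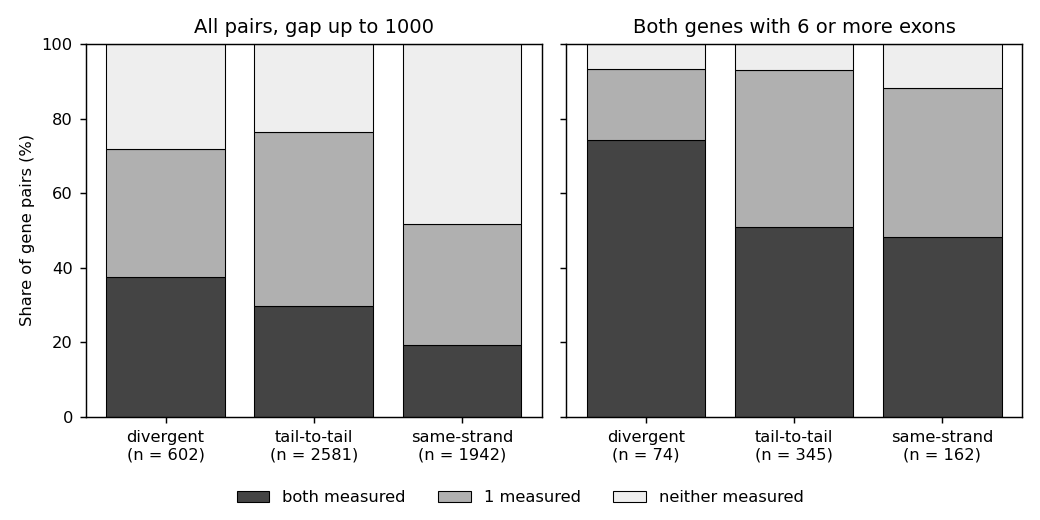
Share of gene pairs (y axis, percent) with both, 1 or neither gene measured (mean of at least 1 FPKM), by orientation, for all pairs with a gap of up to 1000 bases (left) and for pairs whose genes both have 6 or more exons (right). Both genes were measured in 37.5% of all divergent pairs and in 74.3% of those with many exons. Same-strand pairs merged into a single locus are left out.

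Pairs with neither gene measured had short genes, with a median coding length of 589.5 bases and a median of 2 exons, and 30.6% of them lay on unplaced scaffolds. In 91 of these 170 pairs both genes were listed at 0 in both libraries. Pairs with both genes measured had a median coding length of 1066.5 bases and a median of 5 exons, and 11.1% lay on scaffolds.

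In the 206 pairs with 1 measured gene, that gene had a median of 8.06 FPKM, and it was on the minus strand in 98 pairs and on the plus strand in 108. It had more exons than its neighbour in 137 pairs, as many in 21 and fewer in 48. The neighbour was listed at 0 in both libraries in 97 pairs. In 47 pairs (22.8%) the measured gene reached 20 FPKM, 24 of them beside a gene listed at 0. In 10 pairs the measured gene reached 100 FPKM, and 3 of these are given here.

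On chromosome 17, a single-exon gene (6378592 to 6379062) was at 377.0 FPKM in the water library and 328.4 FPKM in the yeast library. Its neighbour across a gap of 959 bases, a 3-exon gene (6380022 to 6381091), was at 0.354 FPKM in the water library and listed at 0 in the yeast library. On chromosome 10, a 3-exon gene (9476497 to 9477719) was at 218.8 and 242.9 FPKM, while the single-exon gene 751 bases away (9478471 to 9478695) was listed at 0 in both libraries. On chromosome 14, the contrast ran the other way along the strand. The plus-strand gene (13349389 to 13349988) was at 169.8 and 155.4 FPKM, and the minus-strand gene (13346429 to 13348851) 537 bases away was listed at 0 in both.

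Where both genes were measured, levels within a divergent pair commonly differed by more than 2-fold. Levels were compared as the mean of log2(FPKM + 1) over both libraries. The absolute difference within the 226 divergent pairs had a median of 1.24 on the log2 scale (quartiles 0.59 and 2.26), a 2.36-fold difference in FPKM + 1. Folds on this scale understate the fold between FPKM values. The median was 1.52 (quartiles 0.72 and 2.74) within 767 tail-to-tail pairs and 1.13 (quartiles 0.37 and 2.19) within 376 same-strand pairs. Genes of a divergent pair were within 2-fold of each other on this scale in 41.6% of the pairs, against 34.2% of tail-to-tail and 44.4% of same-strand pairs. Differences of 8-fold or more were found in 15.0%, 20.6% and 14.1% of them. The orientations were not tested against each other, and their order moves with the choice of pairs. At a mean of at least 5 FPKM the medians were 1.15 for divergent and 1.18 for tail-to-tail pairs, and at gaps up to 250 bases they were 0.92 and 0.83.

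Across pairs, Spearman's rho of both levels was 0.25 for divergent pairs (Pearson's r 0.24, n = 226), 0.02 for tail-to-tail pairs (r 0.03, n = 767) and 0.26 for same-strand pairs (r 0.20, n = 376). These coefficients are descriptions, since all pairs share the same libraries and gene pairs are not replicates. They move with the choice of pairs. With a mean of at least 5 FPKM rho was 0.22 over 111 divergent, -0.03 over 386 tail-to-tail and 0.09 over 183 same-strand pairs. With at least 20 estimated read pairs for each gene in each library it was 0.15 over 192 divergent, 0.02 over 685 tail-to-tail and 0.09 over 309 same-strand pairs. With at least 100 such read pairs it was 0.11 over 102 divergent, -0.07 over 396 tail-to-tail and 0.09 over 164 same-strand pairs. With at least 100 read pairs the median level differences were 1.24, 1.39 and 1.05. The like levels of same-strand pairs came from the shortest gaps. At up to 250 bases rho was 0.82 over 51 same-strand pairs with a median difference of 0.41, and above 500 bases it was 0.12 over 300 pairs with a median difference of 1.39. For divergent pairs above 500 bases, rho was 0.18 over 147 pairs with a median difference of 1.32, and between 250 and 500 bases it was 0.31 over 65 pairs with a median difference of 1.205. Only 14 divergent pairs with a gap of up to 250 bases had both genes measured. For divergent neighbours between 1000 and 2000 bases, rho was 0.07 over 375 pairs with a median difference of 1.47. Where both genes had 3 or more exons, rho was 0.29 over 130 divergent, 0.01 over 441 tail-to-tail and 0.09 over 175 same-strand pairs.

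**Figure D3:**
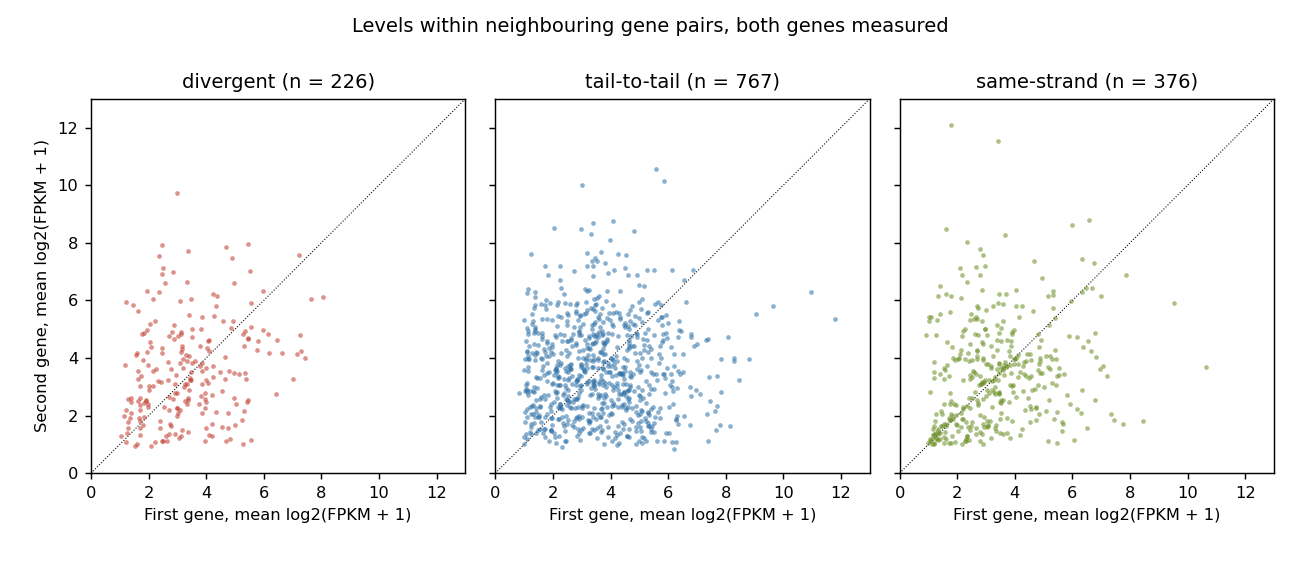
Level of the second gene (y axis, mean log2(FPKM + 1) over both libraries) against that of the first gene (x axis, same unit) for pairs with both genes measured, by orientation. Each point is a gene pair and the dotted line marks equal levels. The points scatter widely in all panels, with a rho of 0.25 for divergent, 0.02 for tail-to-tail and 0.26 for same-strand pairs.

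The order of levels within a pair was stable between the libraries. In 212 of the 226 divergent pairs the same gene was the higher one in both, as in 732 of 767 tail-to-tail and 342 of 376 same-strand pairs. Neither strand led, as the minus-strand gene was the higher in 107 pairs of the water library and in 111 of the yeast library. The gene with more exons was the higher in 109 pairs and the lower in 96, with equal exon numbers in 21. The longer gene was the higher in 112 pairs and the lower in 114.

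In 24 pairs both genes had a mean of at least 20 FPKM, and in 1 pair both reached 100 FPKM. That pair lies on chromosome 17 with a gap of 378 bases. Its minus-strand gene (18562660 to 18566070, 9 exons, coding length 1599 bases) had 145.6 FPKM with water and 154.4 FPKM with yeast. Its plus-strand gene (18566449 to 18567962, 4 exons, 432 bases) was at 189.4 and 190.0 FPKM. Both genes were thus at high and similar levels in both libraries, and the yeast/water ratio of FPKM was 1.06 for the first (95% counting interval 1.02 to 1.11) and 1.003 for the second (0.932 to 1.079).

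The next pairs by the level of their lower gene lie on chromosomes 12, 9, 6 and 7. On chromosome 12 the genes at 6129284 to 6129945 and 6130924 to 6134034 were at 282.2 and 71.2 FPKM in the water library and at 252.9 and 64.9 FPKM in the yeast library. On chromosome 6, genes of 6 exons each at 2989030 to 2993042 and 2993567 to 2995357 were at 62.4 and 79.0 FPKM with water and at 61.9 and 79.5 FPKM with yeast. On chromosome 7, genes at 14875058 to 14876136 and 14876422 to 14878602, 285 bases apart, were at 43.3 and 59.3 FPKM with water and at 47.9 and 59.8 FPKM with yeast. None of these genes changed by more than 1.12-fold between the libraries.

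The opposite case, a large difference across a short gap, was most marked on chromosome 5, where 248 bases separate the coding spans. The minus-strand gene (26449201 to 26452297, 11 exons) was at 6.44 FPKM in the water library and 7.48 FPKM in the yeast library. The plus-strand gene (26452546 to 26455218, 6 exons) was at 865.4 and 830.1 FPKM. The difference was 6.74 on the log2 scale, about 107-fold in FPKM + 1, which is less than the fold between the FPKM values. It was the largest among the 107 pairs in which both genes had at least 5 FPKM and 20 read pairs in each library. The spans of the assembled loci overlapped by 1 base here. On chromosome 7, genes 693 bases apart (381666 to 383804 and 384498 to 386423) were at 9.40 and 211.0 FPKM in the water library. In the yeast library they were at 9.23 and 210.8 FPKM. The pair was picked by its level difference over both libraries, so the second library is no separate check.

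At the other end, genes at 23655832 to 23660797 and 23661476 to 23668652 on chromosome 10 were at 9.42 and 10.6 FPKM in the water library and at 10.6 and 10.3 FPKM in the yeast library. On chromosome 4, genes of 2 and 13 exons 745 bases apart (1177060 to 1179355 and 1180101 to 1184761) were at 13.7 and 11.5 FPKM with water and at 12.0 and 12.6 FPKM with yeast. Near-equal levels thus occurred between genes of unlike structure.

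Nearly all members were at a similar level in both libraries. Ratios are log2((FPKM yeast + 1)/(FPKM water + 1)), and a gene counts as past 2-fold when its ratio reaches 1 (higher) or -1 (lower) on this scale. Of the 658 measured members, 3 were higher and 4 lower in the yeast library. Among all 19884 measured annotated genes, 0.528% were past 2-fold, 0.287% higher and 0.241% lower, against 1.06% of the measured members. The members' count is small and moves with the settings, to 14 with a pseudocount of 0.1 and to 1 where both genes of a pair need at least 20 read pairs in each library. Past 1.5-fold there were 9 higher and 11 lower members, 3.04% in all, against 2.91% of all measured annotated genes (1.44% higher and 1.47% lower). The median log2 ratio of measured members was 0.01, and 95.3% lay within 0.5 of 0.

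No divergent pair had both genes past 2-fold in the same direction, nor did any of the 767 tail-to-tail and 376 same-strand pairs. Only 7 of 658 measured members, 16 of 2742 tail-to-tail and 7 of 1342 same-strand genes were past 2-fold. With so few, a joint pair could hardly be found, so this absence does not show whether neighbours respond together or apart. Each of the 7 members past 2-fold stood beside a gene that was not, in 5 cases a measured gene and otherwise an unmeasured one. The clearest higher member was Pbr012276, which has 5 exons and lies on chromosome 16 (4426435 to 4428682, plus strand, coding length 1107 bases). Its level was 11.2 FPKM with water and 25.6 FPKM with yeast, a 2.28-fold ratio (95% counting interval 2.00 to 2.59). Its neighbour across 629 bases (4413082 to 4425805, 7 exons) was at 97.7 and 97.3 FPKM, a ratio of 0.996 (0.940 to 1.055). The difference between these neighbours, 1.13 on the log2 scale, was the largest among the 107 pairs with ample reads. The higher level of Pbr012276 came from an assembled transcript of 6 exons and 1653 bases, at 8.94 FPKM with water and 24.6 FPKM with yeast. The annotated transcript alone was at 3.43 and 1.47 FPKM and gave a log2 ratio of -0.84, in the opposite direction.

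The other higher members, single-exon genes on chromosomes 14 and 15, rested on 1 and 6 and on 5 and 14 read pairs in the water and yeast libraries. Among the lower members, Pbr013181 on chromosome 3 (21881096 to 21882920, 4 exons on the minus strand) stood at 4.72 FPKM, about 50 read pairs, with water, and with yeast it was listed at 0. Its neighbour across 900 bases was at 1.58 and 1.63 FPKM. A gene of the same exon number and coding length lies elsewhere on chromosome 3 (18114120 to 18115944) and was at 5.15 and 5.12 FPKM. Whether reads of such copies were given to one or the other was not tested.

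A lower member on chromosome 11, Pbr023223 (23790729 to 23792852, minus strand), had 2.61 FPKM with water and 0.621 FPKM with yeast, 4.20-fold lower (2.71 to 6.61). It shares its assembled locus with another annotated gene. The annotated transcript alone was at 0.0716 and 1.34 FPKM, a log2 ratio of 1.13, so the direction depends on which transcripts are counted. Of the last lower members, both listed at 0 in the yeast library, 1 on chromosome 14 carries a gene-table value that is not that of its own locus. The other, on an unplaced scaffold, was at 6.35 FPKM in the water library.

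Log2 ratios of neighbours differed by similar amounts in the 3 orientations. The absolute difference of log2 ratios within a pair had a median of 0.18 (quartiles 0.08 and 0.34) for divergent pairs, 0.18 (0.08 and 0.31) for tail-to-tail pairs and 0.17 (0.09 and 0.32) for same-strand pairs. The order moves with the choice of pairs. With at least 100 read pairs per gene and library the medians were 0.12, 0.14 and 0.14, and where both genes had 3 or more exons they were 0.14, 0.15 and 0.16. The differences between orientations were not tested. Both ratios had the same sign in 101 of 226 divergent pairs, 44.7% (exact interval 38.1 to 51.4), with 56 pairs higher in both genes and 45 lower in both. The share was 53.3% (49.7 to 56.9) for tail-to-tail and 52.9% (47.7 to 58.1) for same-strand pairs. Spearman's rho of the ratios was -0.02 for divergent (Pearson's r -0.03), 0.05 for tail-to-tail (r 0.04) and 0.14 for same-strand pairs (r 0.15). With upper-quartile scaling the same-sign share of divergent pairs was 48.2%.

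**Figure D4:**
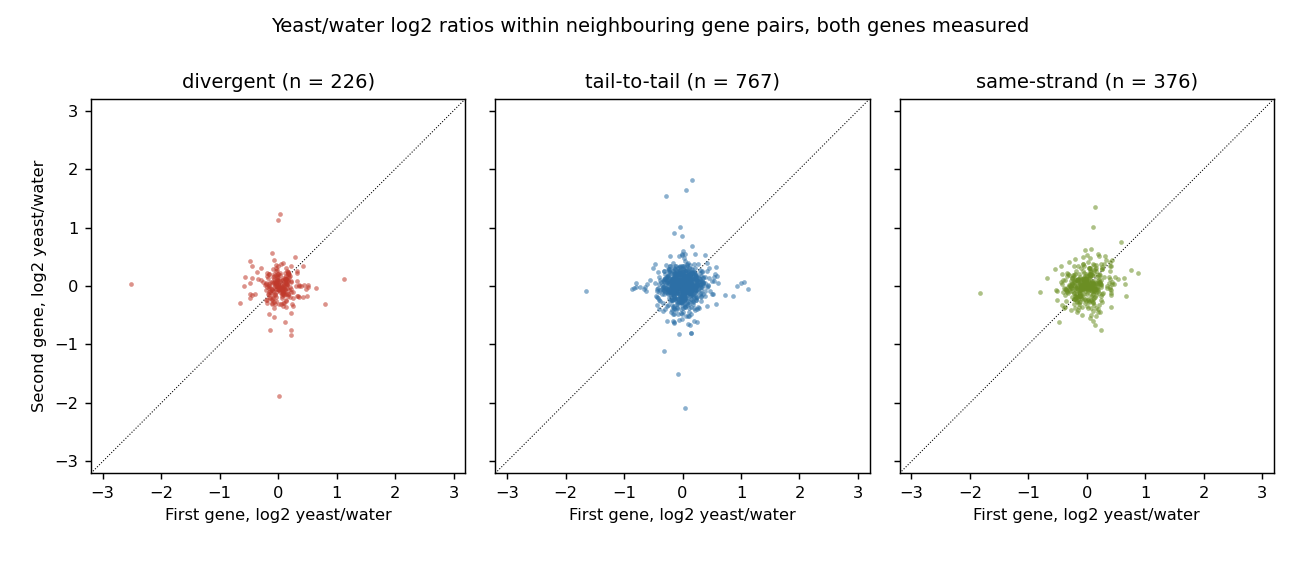
Log2 yeast/water ratio of the second gene (y axis) against that of the first gene (x axis), on the log2(FPKM + 1) scale, for pairs with both genes measured, by orientation. Each point is a gene pair and the dotted line marks equal ratios. Most points lie close to 0, and the points beyond 1 or -1 differ in a single gene of the pair, with a rho of -0.02 for divergent pairs.

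Counting error was looked at gene by gene. Some 95% intervals leave out 1 through counting error alone, and the spread between fruits is not covered. How many of all measured annotated genes had such an interval was not computed. Of the 452 genes in divergent pairs with both measured, the 95% counting interval of the FPKM ratio lay above 1 for 57 and below 1 for 32. For tail-to-tail pairs it lay above 1 for 183 and below 1 for 180 of 1534 genes, and for same-strand pairs for 68 and 76 of 740. In 14 pairs both intervals left out 1, and these split into 4 pairs higher in both genes, 4 lower in both and 6 with opposite directions. Of the 767 tail-to-tail pairs, 40 had both intervals leave out 1, split 13, 7 and 20, and of the 376 same-strand pairs 19, split 6, 8 and 5. Among the 14 divergent pairs with up to 250 bases, 4 had ratios of the same sign and the median ratio difference was 0.25. Between 250 and 500 bases 36 of 65 had the same sign, with a median difference of 0.14.

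Of the 56 pairs higher in both genes, the examples are those with the largest value of the smaller ratio among pairs with at least 5 FPKM and 20 read pairs per gene. The first lies on chromosome 15, with a gap of 862 bases. Its minus-strand gene (12591104 to 12593689, 8 exons) was at 12.7 FPKM with water and 17.4 FPKM with yeast, a 1.37-fold ratio (1.11 to 1.69). Its plus-strand gene (12594552 to 12599207, 14 exons) had 7.39 and 9.64 FPKM, 1.31-fold higher with yeast (1.14 to 1.496). Both counting intervals lay above 1, while the assembled loci of these genes overlapped by 3 bases. From its annotated transcript alone the plus-strand gene had a log2 ratio of 0.01 in place of 0.34. On chromosome 9, genes at 19554444 to 19554788 and 19555082 to 19555885 were at 11.8 and 12.1 FPKM with water and at 15.0 and 14.6 FPKM with yeast. Their locus spans overlapped by 61 bases, and the interval of the first gene's ratio included 1 (0.93 to 1.75). The second gene's log2 ratio was 0.25, but -0.37 from its annotated transcript alone.

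In the lower direction, genes on chromosome 3 with a gap of 193 bases (7206244 to 7209816 and 7210010 to 7211830) were at 17.0 and 8.55 FPKM with water and at 14.8 and 7.07 FPKM with yeast. The ratios were 0.869 (0.753 to 1.004) and 0.83 (0.69 to 0.99). Ranked next were genes 252 bases apart on an unplaced scaffold (204922 to 205416 and 205669 to 208917). Their intervals, 0.59 to 1.28 and 0.71 to 1.06, both included 1. So did those of the following pair on chromosome 12 (6148136 to 6148804 and 6149650 to 6149883), at 0.76 to 1.04 and 0.42 to 1.10. On chromosome 10, genes at 3256365 to 3258081 and 3258506 to 3261370 were at 16.0 and 44.0 FPKM with water and at 11.5 and 39.6 FPKM with yeast. These ratios were 0.72 (0.52 to 0.98) and 0.90 (0.83 to 0.98), so both intervals lay below 1. On an unplaced scaffold, genes 364 bases apart were at 165.4 and 23.8 FPKM with water and at 149.8 and 13.7 FPKM with yeast, with ratios of 0.906 (0.831 to 0.987) and 0.575 (0.472 to 0.696). From the annotated transcript alone the second of these had a log2 ratio of 0.60 in place of -0.76.

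In other pairs the ratios differed between the genes, though in some of them the counting intervals overlapped. On chromosome 15, a 15-exon gene (8697723 to 8702598) was at 6.86 FPKM with water and 8.99 FPKM with yeast, a 1.31-fold ratio (1.06 to 1.62). Its 9-exon neighbour across 634 bases (8703233 to 8706442) was at 20.2 and 17.9 FPKM, a ratio of 0.89 (0.79 to 0.99). From its annotated transcript alone, the log2 ratio of this neighbour was 0.27 in place of -0.17, the same direction as the 15-exon gene. On chromosome 16, a 2-exon gene (6683681 to 6685603) was at 49.9 and 33.0 FPKM, a ratio of 0.66 (0.55 to 0.80). A short single-exon gene 946 bases away was at 8.71 and 8.73 FPKM, about 29 and 25 read pairs. Its ratio was 1.002 (0.560 to 1.76), an interval that overlaps that of the 2-exon gene. The shortest gap among pairs with ample reads was 105 bases, on chromosome 9 (15380141 to 15384373 and 15384479 to 15385153). These genes were at 52.1 and 24.5 FPKM with water and at 58.5 and 22.1 FPKM with yeast, with ratios of 1.12 (1.07 to 1.18) and 0.90 (0.76 to 1.07), and their locus spans overlapped by 225 bases. From its annotated transcript alone the first gene had a log2 ratio of 0.0028 in place of 0.16.

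The 5 pairs just inside the 1000-base limit had gaps of 995 to 1000 bases and levels from 0.10 to 6.91 on the log2 scale, and 3 of them had both genes measured. The 5 just outside had gaps of up to 1006 bases and levels from 0 to 4.25 on the log2 scale, with 1 pair measured in both genes.

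Some divergent pairs had a counterpart of like structure elsewhere in the genome. This search was made after the values had been seen. A match was 2 divergent pairs whose corresponding genes differ by at most 1 exon and 5% of coding length, with gaps within 20% of each other and at least 6 exons in a pair. Of 393 pairs with enough exons, 46 (11.7%) had a match, in 29 matches that form 21 families. This share was below that of tail-to-tail pairs (513 of 1980, 25.9%) and same-strand pairs (173 of 984, 17.6%), of which there are more to match with. Coding lengths were identical in 17 matches, and in 6 of these the gap was identical as well. The members of 13 matches lie on the same chromosome or scaffold, and 6 matches, in 5 families, join different chromosomes. Different chromosomes were joined by 156 of 332 tail-to-tail and 40 of 97 same-strand matches, larger parts than the 6 of 29 divergent ones. Per 100000 possible combinations the order turned, with 37.6 matches for divergent, 16.9 for tail-to-tail and 20.1 for same-strand pairs. These rates include matches on the same chromosome or scaffold and those with unplaced scaffolds. Rates for matches between different chromosomes alone were not calculated. As background, the pear lineage is known to have passed through a whole-genome duplication. Similarity by sequence was not examined, and near-identical copies can share reads, so the level of each copy is uncertain.

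The most expressed pair belongs to such a family. The pair on chromosome 17 described above (9 and 4 exons, coding lengths 1599 and 432 bases, gap 378) matches a pair on chromosome 9 in swapped order with a gap of 336 bases. There the 4-exon gene of 432 bases (17916610 to 17918288) was at 187.7 FPKM in the water library and 204.8 FPKM in the yeast library. The 10-exon gene of 1638 bases (17918625 to 17922077) was at 62.3 and 68.1 FPKM. The short gene was thus the higher one on both chromosomes, at nearly the same level, while the long gene was at 145.6 FPKM on chromosome 17 in the water library. Both genes on chromosome 9 had a ratio of 1.09, with intervals of 1.02 to 1.17 and 1.03 to 1.16. From its annotated transcript alone the 10-exon gene had a log2 ratio of 0.32 in place of 0.13.

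Chromosomes 11 and 3 hold another family. The 3-exon gene of 297 bases was at 68.1 FPKM on chromosome 11 (7204668 to 7206849) and at 85.0 FPKM on chromosome 3 (5509008 to 5511534) in the water library. In the yeast library it was at 75.6 and 88.9 FPKM. The 8-exon neighbour was at 15.3 and 24.5 FPKM with water and at 18.6 and 22.5 FPKM with yeast, across gaps of 443 and 436 bases. The small gene was again the higher one in both places.

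One more family has 3 places, with genes of 10 and 8 exons and coding lengths of 1152 and 1248 bases throughout. On chromosome 12 the 10-exon gene at 3015328 to 3018258 was listed at 0 with water and at 0.251 FPKM with yeast, and the 8-exon gene at 3018755 to 3021496 was at 4.06 and 4.02 FPKM. The second place on chromosome 12 (3590594 to 3596806) gave 0.314 and 0.406 FPKM for the 10-exon gene and 5.76 and 6.33 FPKM for the 8-exon gene. On chromosome 4 (3017289 to 3023160) the values were 6.50 and 7.78 FPKM for the first and 26.9 and 25.0045 FPKM for the second. The 8-exon gene was the higher in every place, and the copy on chromosome 4 was the most expressed.

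Over the 27 matches in which an order could be given, the corresponding gene was the higher one in both pairs in 23. Matches of the same family can reuse a pair, so matches are not independent. An order was taken from any difference of level, also near 0. In a pair on chromosome 17, for instance, the genes were at 0 and 0.090 FPKM with water. The same limits hold for the background matches. Background matches mostly kept the order too, in 200 of 279 for tail-to-tail and 64 of 82 for same-strand pairs. The measured state of both genes was the same in 20 of the 29 divergent matches, 200 of 332 tail-to-tail and 67 of 97 same-strand matches. Some families held a gene without measured expression beside an expressed one in both places. On chromosome 2, a 5-exon gene of 1209 bases was listed at 0 in both libraries at both places, beside a 12-exon gene at 5.76 and 3.13 FPKM with water and at 4.43 and 3.74 FPKM with yeast. On chromosome 9, pairs with genes of 10 and 13 exons had the 10-exon gene listed at 0 in both libraries at both places (18021165 to 18024370 and 18474017 to 18477636). The 13-exon gene was at 6.06 and 8.45 FPKM in the water library and at 6.96 and 9.22 FPKM in the yeast library. There were exceptions. On chromosome 17, pairs of a 19-exon gene of 2034 bases and a single-exon gene of 450 bases differed widely, with the single-exon gene at 2.43 FPKM in one place (23352888 to 23353337) and 244.8 FPKM in the other (24280374 to 24280823) in the water library. In the yeast library these were 3.28 and 235.8 FPKM.

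**Figure D5:**
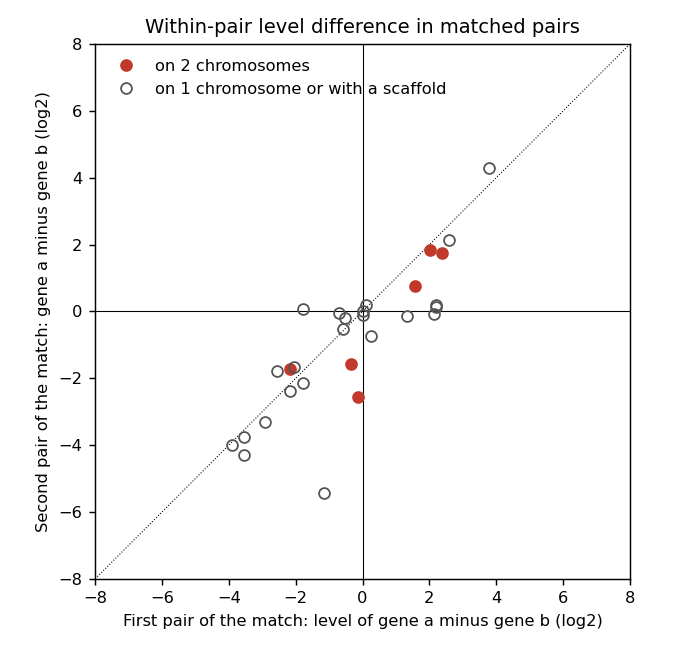
Difference of level between both genes of a pair (mean log2(FPKM + 1), gene a minus gene b) in the second pair of a match (y axis) against the first pair (x axis), for 29 matches. Filled points join different chromosomes, open points lie on 1 chromosome or involve a scaffold, and the dotted line marks equal differences. Of the 27 matches with an order, 23 lie in the lower left or upper right quadrant, where the same gene is the higher one in both pairs. Matches of the same family can share a pair.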

How the data were processed

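The authors deposited a gene table and, per library, a transcript table with FPKM and with coverage (mean read depth per base, a signal). Per the submitters' processing notes, HISAT2 and HTSeq 0.6.1 were used, with no role given. No build or annotation release is named in the sources used here. Gene levels were taken from the gene table, and positions, exons and coding lengths from the transcript tables. Read pairs were estimated as coverage times length over 300 bases, the most frequent value at weakly covered transcripts in both libraries. Fold intervals are exact (Clopper-Pearson) intervals on these estimates, at 95%, and cover counting error only. At this depth 3 read pairs on 1 kilobase correspond to 0.155 FPKM (water) and 0.179 FPKM (yeast). A pseudocount of 1 was used, which understates changes of weakly expressed genes. Same-strand pairs merged into 1 locus were left out of within-pair comparisons, since both genes then carry the same value. Of the members, 19 share a locus with another annotated gene and 5 carry the value of another locus.

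Named pairs were chosen among the 107 pairs with both genes at 5 FPKM or more and at least 20 read pairs per gene and library: the 5 with the highest level of the lower gene, the largest and smallest level difference, the largest joint ratio in each direction, the largest ratio difference and the shortest gap, and any pair with both genes past 2-fold. Any other locus named was picked with its values in view. The members and lists were chosen with earlier results of these data known. Lists by gene product could not be applied. The computation was tested on simulated data. Python 3.11.15, pandas 2.3.3 and SciPy 1.17.1 were used.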

Additional observations from a re-analysis of the deposited data

How the results depend on the processing

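No paired analysis was possible because water and yeast are represented by a single library each, which also means that no library could be left out. Of 126 alternative values for divergent pairs, 97 were counted as close to the reported one. This count is no measure of stability, because some alternatives could not change a value. Subtracting a common value from all log2 ratios leaves the median level difference (1.24) and ratio difference (0.18) as they were. A pseudocount cannot change the sign of a ratio. The limit for close was also wide, as rho of levels at 0.15 with at least 20 read pairs was counted as close to 0.25. The number of member genes past 2-fold (7) was 14 with a pseudocount of 0.1, 14 from the annotated transcript alone, 20 at 1.5-fold, 4 at gaps up to 500 bases, 3 where both genes have 3 or more exons, 2 at 4-fold and 2 at gaps up to 250 bases. It was 1 with a pseudocount of 5, with a mean of at least 5 FPKM, and with at least 20 or at least 100 read pairs. The number of pairs with both genes measured (226) was 363 with no filter, 130 with 3 or more exons, 111 at 5 FPKM, 103 from the annotated transcript, 102 at 100 read pairs, 79 at gaps up to 500 and 14 at gaps up to 250 bases. The median level difference (1.24) was 1.4997 with no filter, 0.92 at gaps up to 250 bases and 0.84 with a pseudocount of 5. The median ratio difference (0.18) was 0.25 at gaps up to 250 bases, 0.22 from the annotated transcript and 0.12 both with a pseudocount of 5 and at 100 read pairs. At gaps up to 250 bases, rho was 0.52 for levels and -0.27 for ratios, with the same sign in 28.6% of 14 pairs. At 100 read pairs rho of levels was 0.11. Of 68 named genes, 9 changed the sign of their ratio when the annotated transcript alone was used. Both of these that were past 2-fold reversed, to -0.84 for Pbr012276 and to 1.13 for Pbr023223. Another 10 ratios moved by more than their counting interval under that choice, with or without a change of sign, and 3 did so over the other choices. The gene on chromosome 14 with the value of another locus has no counting interval and is not among them. The cut-offs at 100 read pairs and 3 exons were chosen after seeing the data. The cause of these shifts was not tested, beyond the smaller number of pairs that a stricter filter leaves. Alternatives on lists of gene products were not run. Of 658 measured members, 605 had at least 20 read pairs in both libraries.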
